A study of Mus musculus with 2 samples.

Results

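*Ccn1* and *Ccn2*, 2 of the 479 genes of a Xenium In Situ panel, were chosen by symbol as targets of the transcriptional coactivator YAP and were followed across cell classes of 2 mouse lung sections with small cell lung cancer (SCLC). Xenium In Situ reads coded probes by imaging and counts the transcripts of a gene inside each segmented cell. One section, RPR2, came from a mouse whose floxed alleles of *Rb1*, *Trp53* and *Rbl2* (lox/lox) had been deleted by intratracheal adenoviral Cre at 10 weeks of age, which turns a part of the lung epithelium into SCLC. The other, CRPR2, carried the same 3 deletions and a *Cracd* KO. The study's text gives that KO as germline, so that all cells of CRPR2 lacked *Cracd* and not the tumor cells alone, and gives 6 months from Cre to harvest for lungs of this model. For the single-cell tumors of this model it names Ad-CMV-Cre, a vector whose promoter is not restricted to a cell type, and the sample labels also name Ad-Cracd-Cre particles.

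Each genotype had 1 section. Differences between the sections were therefore not tested, and genotype, mouse and section cannot be told apart. All intervals below are 95% intervals of counting error. *Cracd* is not among the panel genes, so the genotype labels were not checked. *Rb1* stood at 10393 counts per 1000000 gene transcripts (CPM) in RPR2 tumor cells and at 11582.5 CPM in CRPR2 tumor cells, against 4031 and 4259 CPM in endothelial cells. *Trp53* stood at 762 and 845 CPM against 1907 and 2631 CPM. Whether these probes lie in the deleted parts is not given in the sources used here, so neither gene checks the deletions.

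*Ccn1* (also known as Cyr61) and *Ccn2* (Ctgf) encode secreted matricellular proteins of the CCN family, which bind integrins, growth factors and matrix. Both are widely used as readouts of the Hippo pathway. When Hippo kinases are inactive, YAP and TAZ enter the nucleus, bind TEAD factors and switch on such targets, and stretch, cell spreading and an intact actin cytoskeleton favor this state. In the lung, YAP and TAZ are known for their part in alveolar type 1 cell differentiation, and *Ccn2* is known as a product of activated fibroblasts. Neuroendocrine SCLC cells are known for low YAP1. *Yap1*, *Wwtr1* (which encodes TAZ) and *Tead1* are not on the panel, so only targets were read.

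In RefSeq coordinates of GRCm38.p6, *Ccn1* lies on chromosome 3 from 145646971 to 145649985, and *Ccn2* on chromosome 10 from 24595442 to 24598683. The build behind the probes is not given in the sources used here. The 250 bases before the start of *Ccn1* (chr3:145649986-145650235, minus strand, RefSeq) are shown because TEAD, the DNA-binding partner of YAP, is what makes this gene a Hippo readout. Capitals mark the match to the TEAD motif GGAATG, which here lies on the opposite strand and starts 103 bases before the gene start.

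Ccn1: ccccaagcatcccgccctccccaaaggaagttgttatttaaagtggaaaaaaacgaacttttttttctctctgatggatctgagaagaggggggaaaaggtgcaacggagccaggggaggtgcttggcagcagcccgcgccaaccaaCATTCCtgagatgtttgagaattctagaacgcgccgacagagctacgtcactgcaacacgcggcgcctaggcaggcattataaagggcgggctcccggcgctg

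Searched on both strands, GGAATG was found in the same window of 12.6% of 32851 RefSeq promoters and of 14.8% of the 345 panel genes with an entry. The AP-1 motif TGANTCA (in 6.75% of promoters) and the CArG box of serum response factor (in 1.47%) had no match in these 250 bases of *Ccn1*. No motif overlapped another. A match is a description of letters and not of binding.

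Cells with at least 20 gene transcripts were used, 152915 in RPR2 and 340609 in CRPR2, with a median of 101 transcripts per cell in both. Tumor cells were those with at least 4 transcripts of *Chga*, *Chgb*, *Scg5*, *Snap25* and *Celf3*, whatever else they held. Every other class had at most 1 such transcript, at least 4 transcripts of its own markers and more of them than of any other class. The rule gave 13782 tumor cells in RPR2 (9.01% of cells) and 160674 in CRPR2 (47.2%). Epithelial cells numbered 47020 and 54398, endothelial cells 52711 and 32981, mural cells (smooth muscle cells and pericytes) 9916 and 8456, and fibroblasts 13258 and 14344. No class was given to 6.80% of RPR2 cells and 17.5% of CRPR2 cells. The classes are ranges of a per-cell count and not cell types: 1312 cells in RPR2 and 21455 in CRPR2 had 3 tumor marker transcripts, 1 short of the tumor rule.

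The tumor label rests on the 5 genes of its rule. *Vwf* and *Prox1*, listed as endothelial markers, were higher in tumor cells (17949 and 22293 CPM of *Vwf*, 9359 and 8470 CPM of *Prox1*) than in endothelial cells (11659 and 18449 CPM, 346 and 1318 CPM), and a split of tumor cells by endothelial markers is therefore not reported. Epithelial cells were divided by their leading markers into alveolar type 2, ciliated and secretory cells and a group led by *Ager* and *Aqp5*. These are the only 2 of 10 listed alveolar type 1 markers on the panel, and the group is called *Ager*/*Aqp5* cells here. Of the cell barcodes, 8 occurred in both sections.

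Among the 11 classes reported here, both genes had their lowest CPM in tumor cells and their highest outside the tumor, each in a class of its own. *Ccn1* was highest in *Ager*/*Aqp5* cells, at 19169.7 CPM (interval 18858 to 19486) in RPR2 and 19153 CPM (18735 to 19578) in CRPR2. *Ccn2* was highest in mural cells, at 16539 CPM (16287 to 16794) and 15225 CPM (14973 to 15481). Levels are compared only within a gene, since the capture of its probes is not known.

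**Figure D1:**
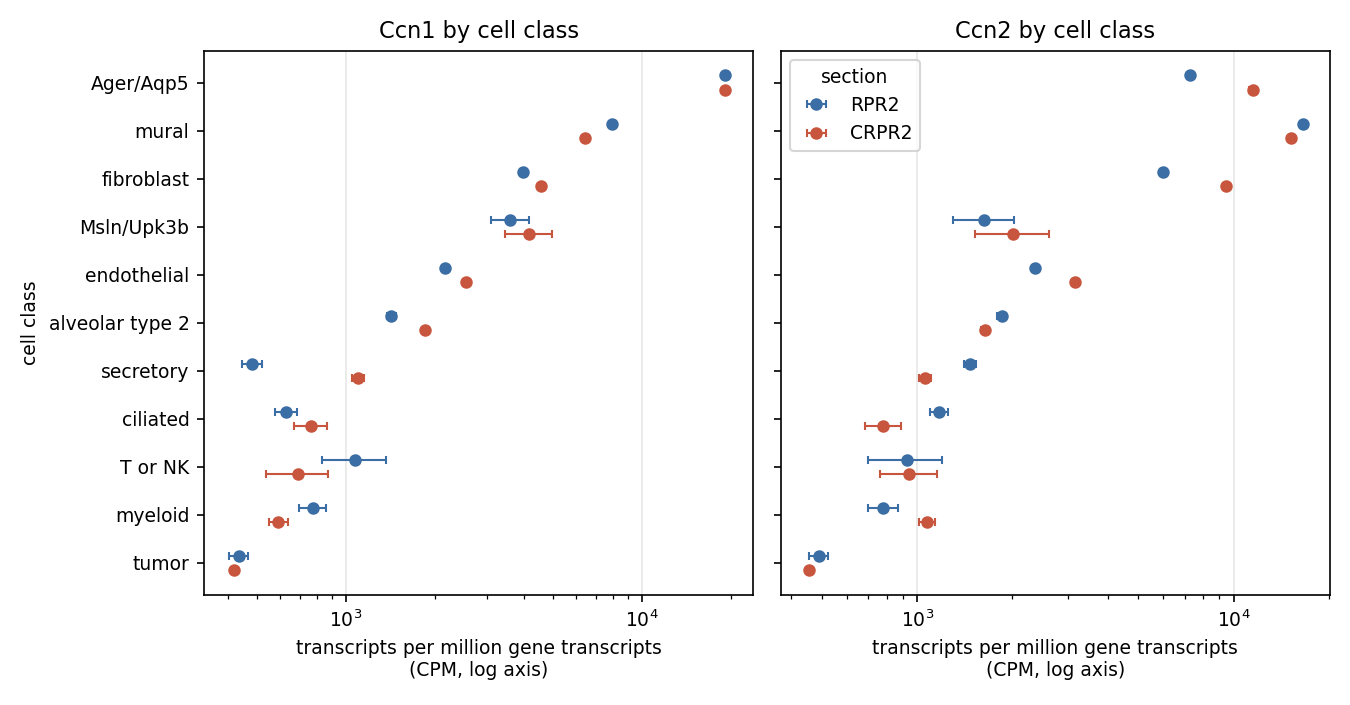
Transcripts of *Ccn1* (left) and *Ccn2* (right) per 1000000 gene transcripts (CPM, log axis) in 11 cell classes of the RPR2 (blue) and CRPR2 (red) section. Points are sums over all cells of a class and bars are 95% Poisson intervals, which are often smaller than the points. The tumor class lies lowest for both genes in both sections, *Ager*/*Aqp5* cells lie highest for *Ccn1* and mural cells for *Ccn2*.

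For *Ccn1*, the order from high to low began the same way in both sections. *Ager*/*Aqp5* cells were followed by mural cells (7906 CPM in RPR2 versus 6436 CPM in CRPR2), fibroblasts (3968 and 4565 CPM), cells led by the mesothelial markers *Msln* and *Upk3b* (3596 and 4159 CPM), endothelial cells (2169 and 2539 CPM) and alveolar type 2 cells (1426 and 1850 CPM). Fibroblasts and *Msln*/*Upk3b* cells did not differ beyond counting error in either section. The order below alveolar type 2 cells changed between sections and held overlapping intervals. It contained secretory cells (480.3 and 1097 CPM), ciliated cells (628 and 762 CPM), myeloid cells (773 and 592 CPM), T or NK cells (1072 and 688 CPM, from 66 and 70 transcripts) and, last, tumor cells (434 and 420.0 CPM).

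For *Ccn2*, mural cells were followed by *Ager*/*Aqp5* cells (7303 CPM in RPR2 versus 11497 CPM in CRPR2), fibroblasts (5971 and 9429.6 CPM) and endothelial cells (2361 and 3151 CPM). These 4 classes kept their order in both sections, and no neighbors among them overlapped. Alveolar type 2 cells (1847 and 1633 CPM) and *Msln*/*Upk3b* cells (1629 and 2009 CPM) overlapped in both. Secretory cells (1466 and 1059 CPM), ciliated cells (1172 and 781 CPM), myeloid cells (779 and 1075 CPM) and T or NK cells (926 and 944 CPM) lay between them and tumor cells (488 and 453 CPM). The highest class stood 33.9-fold above tumor cells in RPR2 and 33.6-fold in CRPR2. For *Ccn1* the corresponding ratios were 44.2-fold and 45.6-fold.

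The share of cells with a transcript gave the same picture. After each cell was thinned to 50 transcripts, 54.9% of *Ager*/*Aqp5* cells in RPR2 and 51.3% in CRPR2 had *Ccn1*. Without thinning the shares were 75.1% and 71.8%, at median depths of 110 and 123 transcripts. Among mural cells 42.3% and 40.2% had *Ccn2* after thinning, and 54.3% and 53.1% without it, at median depths of 89 and 98.

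In tumor cells, neither gene stood above its level in T or NK cells. *Ccn1* was found in 3.73% of RPR2 tumor cells and 3.72% of CRPR2 tumor cells, at median depths of 111 and 108 transcripts, and in 1.81% and 1.71% after thinning. *Ccn2* was found in 4.32% and 3.96%, and in 2.05% and 1.87% after thinning. T or NK cells, which are not known as a source of either protein, gave shares of 5.13% and 2.86% for *Ccn1* and 2.87% and 4.60% for *Ccn2* after thinning, at a median depth of 79 in both sections. Every tumor share lay below the T or NK share of its section, the only reference used here. For *Ccn2* in RPR2 the intervals overlapped (1.81 to 2.30% in tumor and 1.73 to 4.44% in T or NK cells). T or NK cells held more of the mural marker *Acta2* (18810 and 22195 CPM against 4076 and 4500 CPM in tumor cells). The fibroblast marker *Col1a1* stood at 6530 and 7926 CPM against 595 and 1036 CPM. The T or NK level is therefore not a floor for tumor cells, and the part of neighboring cells in it was not tested. Single probes that match no mouse gene averaged 2.72 and 2.29 CPM and reached at most 9.94 and 8.44 CPM. The tumor levels were well above the counts of these control probes.

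Within the tumor class, both genes were higher in cells that also held transcripts of the classes in which the genes were high. Tumor cells without any fibroblast marker transcript had 359 CPM of *Ccn1* in RPR2 and 339 CPM in CRPR2, and those with 4 or more had 3805 and 2799 CPM. For *Ccn2* the same cells had 352 and 275 CPM against 5472 and 5526 CPM. These fibroblast-marked cells were few, 148 in RPR2 and 2050 in CRPR2 (1.07% and 1.28% of tumor cells).

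Mural markers moved with both genes in the same way, with *Ccn2* at 375 and 295 CPM in tumor cells without them and at 1754 and 2083 CPM in those with 4 or more. *Ager* and *Aqp5* transcripts did so for *Ccn1*, from 322 and 316 CPM without any to 2594 and 1979.8 CPM with 4 or more. The part of segmentation, overlap in the section and the cells themselves in these levels was not tested.

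**Figure D2:**
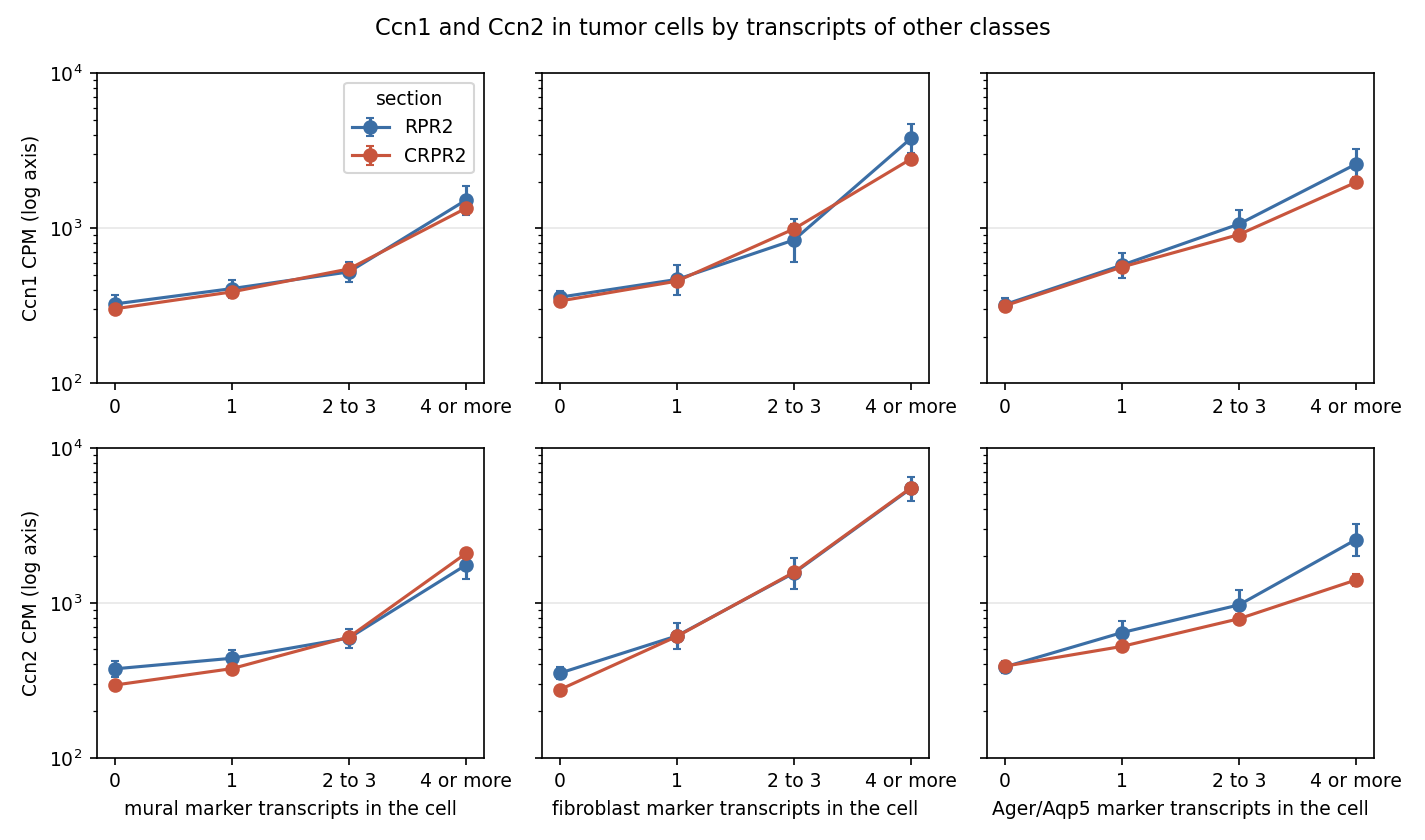
*Ccn1* (top) and *Ccn2* (bottom) in tumor cells, in CPM on a log axis, by the number of transcripts of mural (left), fibroblast (middle) and *Ager*/*Aqp5* (right) markers in the same cell, for RPR2 (blue) and CRPR2 (red). Bars are 95% Poisson intervals. In each panel and section the level is lowest in cells without such transcripts and highest in cells with 4 or more.

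Tumor cells without any mural, fibroblast, *Ager* or *Aqp5* transcript made up 37.3% of the class in RPR2 (5135 cells) and 37.2% in CRPR2 (59820 cells, median depth 95 in both). Their *Ccn1* stood at 217 CPM (interval 178 to 261) in RPR2 and 207 CPM (195 to 219) in CRPR2. Their *Ccn2* stood at 240.1 CPM (200 to 286) and 191 CPM (180 to 203). The other tumor cells had 532 and 519 CPM of *Ccn1* and 601 and 575 CPM of *Ccn2*. This split was chosen after the data had been seen.

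Both genes had lower CPM in tumor cells with more neuroendocrine transcripts. *Ccn1* stood at 663 CPM in RPR2 cells with 4 to 5 tumor marker transcripts, at 471 CPM with 6 to 9 and at 348 CPM with 10 or more, and at 595, 422 and 319 CPM in CRPR2. *Ccn2* stood at 886, 524 and 356 CPM in RPR2 and at 669, 450 and 335 CPM in CRPR2. Depth moved with this split, with medians of 78, 99 and 138 transcripts in RPR2 and 85, 104 and 139 in CRPR2. As counts, RPR2 held 160 *Ccn1* transcripts in 2844 cells, 249 in 5084 and 303 in 5854, and 214, 277 and 310 of *Ccn2*. CRPR2 held 2366 *Ccn1* transcripts in 43248 cells, 3233 in 70048 and 2245 in 47378, and 2663, 3446 and 2357 of *Ccn2*. The fall in CPM is therefore not read as a fall in transcripts per cell.

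Cells with a transcript of the cycling genes *Mki67* or *Top2a* had lower CPM of both genes than cells without one. They were also deeper, with median depths of 121 against 97 transcripts in RPR2 and 115 against 93 in CRPR2. Lower CPM in this split is therefore not read as fewer transcripts per cell. *Ccn1* stood at 384 against 527 CPM in RPR2 and at 393 against 498 CPM in CRPR2, and *Ccn2* at 404 against 646 CPM and at 414 against 564 CPM. Within tumor cells free of mural, fibroblast, *Ager* and *Aqp5* transcripts, *Ccn1* was at 211 against 225 CPM in RPR2, where the intervals overlapped, and at 186 against 256 CPM in CRPR2. Cells with a transcript of the NOTCH targets *Hes1*, *Hey1* or *Hey2* had 539 CPM of *Ccn1* against 386 CPM in RPR2 and 564 against 353 CPM in CRPR2, and in the free cells 234 against 211 CPM, where the intervals overlapped, and 254 against 191 CPM. *Ccn2* stood in the same cells at 566 against 453 CPM in RPR2 and 562 against 403 CPM in CRPR2, and in the free cells at 226 against 245 CPM, again with overlapping intervals, and at 217 against 183 CPM. *Hes1* was higher in secretory than in tumor cells (8945.5 and 6500 CPM against 1701 and 1733 CPM). *Hey1* was higher in endothelial cells (5687 and 4607 CPM against 1240 and 1271 CPM). The free cells can still hold transcripts of these classes, so the split is not read as NOTCH activity of tumor cells.

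Between the sections, tumor cells differed little. *Ccn1* had a log2 ratio of CRPR2 over RPR2 of -0.05 (interval -0.16 to 0.07) and *Ccn2* one of -0.11 (-0.21 to -0.00034). Of the 288 panel genes with at least 100 CPM in either section's tumor cells, 14.6% differed at least 2-fold, and neither *Ccn1* nor *Ccn2* was among them. The median log2 ratio of these genes was 0.01. The part of transcripts from neighboring cells in the tumor levels was not tested, so these ratios are not read as a change in expression or as the absence of one.

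**Figure D3:**
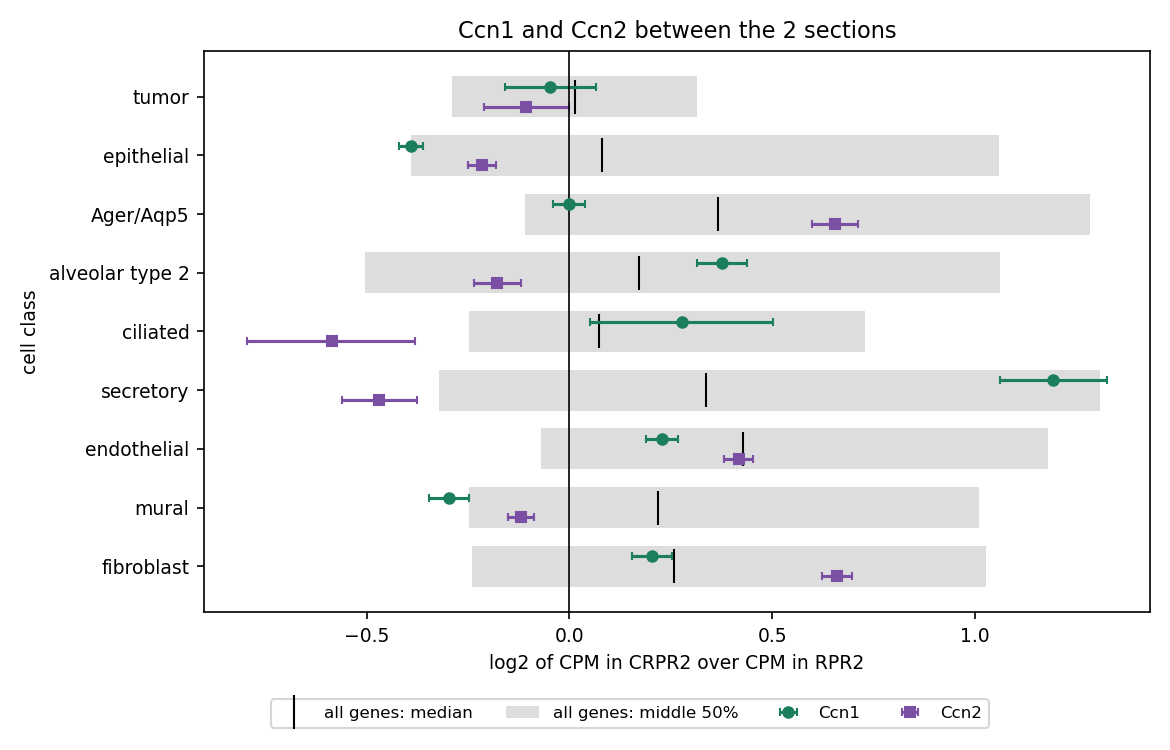
Log2 ratio of CPM in CRPR2 over RPR2 for *Ccn1* (green circles) and *Ccn2* (purple squares) in each cell class, with 95% intervals of counting error. Gray bars span the middle 50% of all panel genes with at least 100 CPM in the class and black ticks their median. *Ccn1* lies near 0 in *Ager*/*Aqp5* cells and above 1 in secretory cells, and *Ccn2* lies near 0.66 in *Ager*/*Aqp5* cells and fibroblasts.

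Outside the tumor the sections differed more widely for most genes. In the CRPR2 section, epithelial, endothelial, mural and fibroblast cells held more tumor marker transcripts than in RPR2. Their mean per cell was 0.0365 in RPR2 and 0.227 in CRPR2 epithelial cells, and 0.0155 and 0.0931 in endothelial cells. In mural cells it was 0.0211 and 0.0766, and in fibroblasts 0.02655 and 0.0872. *Mki67* in mural cells stood at 422 and 2490 CPM. *Ccn3*, another CCN family member, stood at 45014 and 47218 CPM in tumor cells (in 97.5% and 97.7% of them). It was at 1896 CPM in RPR2 epithelial cells and 6487 CPM in CRPR2 epithelial cells, at 589 and 3439 CPM in endothelial cells and at 964 and 3785 CPM in fibroblasts. In mural cells it was at 3732 and 4146 CPM. Ratios below are given also over cells without any transcript of the tumor markers, *Ccn3*, *Mki67* or *Top2a*, a restriction chosen after the data had been seen. These are called cells without tumor and cycling transcripts. *Ccn3* was not confined to tumor cells, and 19.3% of RPR2 mural cells and 31.0% of RPR2 ciliated cells held it. The restriction thus also drops cells by a gene that is not particular to the tumor.

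In epithelial cells, *Ccn1* was lower in CRPR2, at 3639 CPM in RPR2 versus 2777 CPM in CRPR2 (log2 ratio -0.39, interval -0.42 to -0.36), and *Ccn2* was lower at 2433 and 2094.5 CPM (-0.22, -0.25 to -0.18). At least 2-fold differences were found for 34.2% of 330 panel genes in this class, and neither *Ccn1* nor *Ccn2* was among them. *Ager*/*Aqp5* cells made up 13.6% of epithelial cells in RPR2 and 5.86% in CRPR2. They held 75.2% of the epithelial *Ccn1* transcripts in RPR2 and 44.9% in CRPR2, and 42.8% and 35.8% of the epithelial *Ccn2* transcripts. With each subclass weighted by its transcripts in RPR2, the log2 ratio was 0.14 for *Ccn1* and 0.20 for *Ccn2*. Over cells without tumor and cycling transcripts it was -0.21 for *Ccn1* and 0.10 for *Ccn2*. In cells without a marker transcript of any non-epithelial class (3796 in RPR2 and 4298 in CRPR2) *Ccn1* turned to 0.89 (0.63 to 1.16), and *Ccn2* was -0.58 (-0.81 to -0.35). Under this setting an epithelial subclass can still hold markers of another epithelial subclass. The direction of both epithelial ratios thus depended on which cells were counted.

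Inside the *Ager*/*Aqp5* cells, *Ccn1* stood at 2.24 transcripts per cell in RPR2 and 2.50 in CRPR2, and its CPM differed by less than counting error (log2 ratio -0.0013, interval -0.041 to 0.038). Per cell the log2 ratio was 0.16 (0.12 to 0.20), and by shares of thinned cells it was -0.10 (-0.19 to -0.01). In the 83 and 45 cells without a marker transcript of any non-epithelial class it was -0.62 (-1.16 to -0.10), so *Ccn1* had no settled direction here. *Ccn2* was 1.57-fold higher in CRPR2 (7303 and 11497 CPM, log2 ratio 0.65, interval 0.60 to 0.71). Over cells without tumor and cycling transcripts the log2 ratio was 0.09 (0.04 to 0.13) for *Ccn1* and 0.78 (0.72 to 0.84) for *Ccn2*. The background was 32.9% of 292 genes past 2-fold, with neither gene among them. The ratio of *Ccn2* ranked 122 from the highest of these genes, whose median was 0.37.

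Cells with more *Ager* and *Aqp5* had more *Ccn1*. Epithelial cells without either transcript had 694 CPM of *Ccn1* in RPR2 and 1131.5 CPM in CRPR2, those with 1 to 3 had 951 and 1416 CPM, those with 4 to 9 had 5445 and 3565.5 CPM, and those with 10 or more had 18257.5 and 14588 CPM. For *Ccn2* the levels were 1401 and 1157 CPM without either transcript and 7064 and 8407 CPM with 10 or more. *Ccn1* thus spanned a wider range than *Ccn2* along this axis in both sections.

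**Figure D4:**
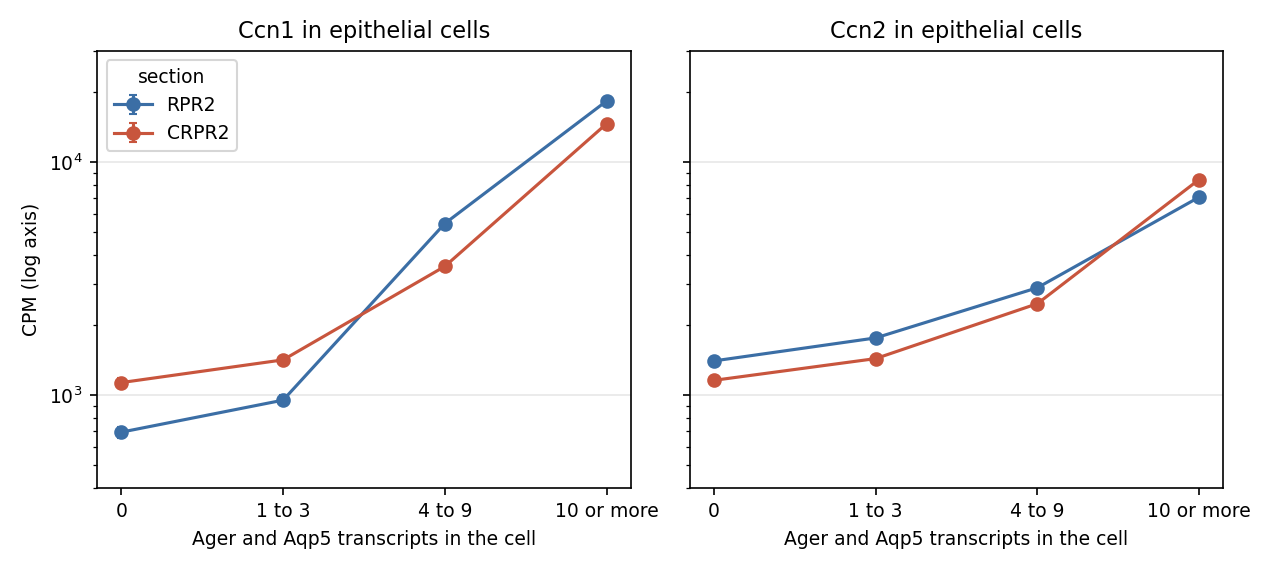
*Ccn1* (left) and *Ccn2* (right) in epithelial cells, in CPM on a log axis, by the number of *Ager* and *Aqp5* transcripts in the cell, for RPR2 (blue) and CRPR2 (red). Bars are 95% Poisson intervals. Both genes are higher in cells with more of these transcripts, and *Ccn1* reaches 18257.5 CPM in RPR2 versus 14588 CPM in CRPR2 in cells with 10 or more.

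In the other epithelial cells *Ccn1* was higher and *Ccn2* lower in CRPR2, and the lower *Ccn2* did not hold beyond counting error in cells without tumor and cycling transcripts. In cells without a marker transcript of any non-epithelial class it held in secretory and ciliated cells but not in alveolar type 2 cells. Such cells can still hold markers of the other epithelial subclasses, *Ager* and *Aqp5* among them. In secretory cells *Ccn1* went from 480.3 CPM in RPR2 to 1097 CPM in CRPR2, a log2 ratio of 1.19 (interval 1.06 to 1.32) and the only at least 2-fold difference of either gene in the 9 classes of the ratio plot. Past that fold were 44.7% of 311 genes in secretory cells. *Ccn3* went from 2949 to 8804 CPM in the same cells, and the RPR2 level of *Ccn1* lay under that of T or NK cells in its section (1072 CPM). Secretory cells had a median of 4 ciliated marker transcripts in RPR2 and 0 in CRPR2. *Vwf*, high in tumor cells, stood in them at 226 and 2448 CPM. The part of this shift in the ratio was not tested. Over cells without tumor and cycling transcripts the log2 ratio of *Ccn1* was 1.54, and it was 2.10 (1.44 to 2.81) in cells without a marker transcript of any non-epithelial class. *Ccn2* in secretory cells had a log2 ratio of -0.47 (-0.56 to -0.38), and -0.05 (-0.17 to 0.08) over cells without tumor and cycling transcripts. It was -0.92 (-1.28 to -0.57) in cells without a marker transcript of any non-epithelial class and -0.62 (-0.78 to -0.46) by shares of thinned cells.

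Alveolar type 2 cells had a log2 ratio of 0.38 (0.31 to 0.44) for *Ccn1* and -0.18 (-0.24 to -0.12) for *Ccn2*, in a class where 36.6% of 325 genes passed 2-fold. Over cells without tumor and cycling transcripts *Ccn1* had 0.46 (0.39 to 0.54) and *Ccn2* 0.05 (-0.02 to 0.12). Without a marker transcript of any non-epithelial class *Ccn1* had 1.08 (0.44 to 1.77) and *Ccn2* 0.61 (-0.15 to 1.44). Ciliated cells had 0.28 (0.05 to 0.50) for *Ccn1* and -0.59 (-0.79 to -0.38) for *Ccn2*, with 21.0% of 291 genes past 2-fold. Over ciliated cells without tumor and cycling transcripts both intervals held 0, with 0.23 (-0.05 to 0.51) for *Ccn1* and -0.25 (-0.51 to 0.0064) for *Ccn2*. Without a marker transcript of any non-epithelial class they were 2.12 (0.87 to 3.44) and -1.34 (-2.22 to -0.55), in 1081 and 388 cells. Neither gene was past 2-fold over all cells of these classes.

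In fibroblasts, the CPM of *Ccn2* was 1.58-fold higher in CRPR2 (log2 ratio 0.66, interval 0.62 to 0.70). That of *Ccn1* was 1.15-fold higher (0.20, 0.15 to 0.25). Mean transcripts of *Ccn2* per cell were 0.653 (RPR2) and 1.13 (CRPR2), a log2 ratio of 0.79 (0.75 to 0.82). After thinning, 20.5% of fibroblasts in RPR2 and 28.0% in CRPR2 had *Ccn2*. Neither gene was among the 32.5% of 338 genes past 2-fold, and *Ccn2* ranked 120 from the highest of them, where the median log2 ratio was 0.26. The log2 ratio over cells without tumor and cycling transcripts was 0.58 for *Ccn2* and 0.04 (-0.02 to 0.10) for *Ccn1*. In the 136 and 219 cells without a marker transcript of any other class it was 1.31 (0.74 to 1.91) for *Ccn2*, and *Ccn1* turned to -0.16 (-0.87 to 0.56).

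The higher *Ccn2* was found in each fibroblast group looked at, and the higher *Ccn1* was not. Among fibroblasts led by *Itga8* and *Nox4*, genes of alveolar fibroblasts, *Ccn2* stood at 6737 CPM in RPR2 versus 11560.2 CPM in CRPR2 and *Ccn1* at 4233.5 and 6776.5 CPM. Among those led by *Pi16*, *Dpt* and *Mfap5*, genes of adventitial fibroblasts, *Ccn2* stood at 4747 and 7444 CPM and *Ccn1* at 3439.9 and 2762 CPM. *Itga8* and *Nox4* led in 59.6% of RPR2 fibroblasts and 38.9% of CRPR2 fibroblasts. Fibroblasts with at least 6 transcripts of *Col1a1*, the main chain of type I collagen, made up 18.3% and 42.9% of the class, and in them *Ccn2* had a log2 ratio of 0.86 (0.79 to 0.93). In those with at most 1 it was 0.43 (0.31 to 0.54).

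*Ccn2* also went with *Acta2*, the smooth muscle actin of myofibroblasts. In CRPR2 it stood at 8461 CPM in fibroblasts without *Acta2* and at 13411 CPM in those with 4 or more transcripts. In RPR2 the same groups stood at 5523 and 7658.5 CPM. *Ccn1* went from 3212 to 7366.5 CPM in RPR2 and from 3395 to 7427 CPM in CRPR2. Mural transcripts lying in fibroblasts were not told apart from *Acta2* of the fibroblasts, and their part was not tested.

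In endothelial cells both genes had higher CPM in CRPR2. The log2 ratio was 0.23 for *Ccn1* (interval 0.19 to 0.27) and 0.42 for *Ccn2* (0.38 to 0.45). These CPM ratios lay at or under the median of the class, 0.43, and neither gene was among the 31.6% of 301 genes past 2-fold. Mean transcripts of *Ccn1* per cell were 0.233 (RPR2) and 0.284 (CRPR2), a log2 ratio of 0.29 (0.25 to 0.33). For *Ccn2* the means were 0.253 and 0.353, a log2 ratio of 0.48 (0.44 to 0.51). The log2 ratios over cells without tumor and cycling transcripts were 0.28 and 0.49. Over the cells with such transcripts, 7.58% of the class in RPR2 and 34.2% in CRPR2, the ratios were -0.02 (-0.11 to 0.08) and -0.01 (-0.10 to 0.08). In the 883 and 405 cells without a marker transcript of any other class both were past 2-fold, at 1.22 (0.64 to 1.80) and 1.67 (1.16 to 2.19). Endothelial cells with at least 2 transcripts of *Vwf*, which is highest in larger vessels, had 3069 CPM of *Ccn2* in RPR2 and 4145 CPM in CRPR2, and those without *Vwf* had 2077 and 2466 CPM. *Ccn1* had 2637 and 2486 CPM in the first and 1989 and 2644 CPM in the second. The first group made up 22.5% of the class in RPR2 and 36.1% in CRPR2. *Vwf* is a marker of the class itself and was higher in tumor cells, so this split is not read as vessel size. The part of tumor transcripts in it was not tested.

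In mural cells both genes had lower CPM in CRPR2, *Ccn1* with a log2 ratio of -0.30 (interval -0.35 to -0.25) and *Ccn2* with one of -0.12 (-0.15 to -0.09). Neither was among the 29.9% of 328 genes past 2-fold, and the median of the class was 0.22. Per cell the log2 ratio was -0.19 (-0.24 to -0.14) for *Ccn1*. For *Ccn2*, at 1.65 and 1.63 transcripts per cell, it was -0.015 (-0.047 to 0.018), an interval that held 0. Over cells without tumor and cycling transcripts *Ccn1* had -0.20 and *Ccn2* 0.05. Cells led by the contractile genes *Acta2*, *Tagln*, *Myh11*, *Des* and *Cnn1* had 8255 CPM of *Ccn1* in RPR2 and 6746 CPM in CRPR2. Cells led by the pericyte genes *Rgs5*, *Higd1b* and *Ndufa4l2* had 2121 and 3522 CPM. For *Ccn2* the contractile cells had 16809 and 15716 CPM and the other cells 10680.2 and 10019 CPM. Pericyte-gene-led cells numbered 440 and 707, a split that rests on sums of different probes and does not measure the share of pericytes.

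The sections as wholes had 2973 CPM of *Ccn1* in RPR2 and 1496 CPM in CRPR2, and 3388 and 1963.5 CPM of *Ccn2*. In such totals, fewer cells of a class and fewer transcripts per cell cannot be told apart. Tumor cells, 47.2% of CRPR2 cells, held 14.1% of its *Ccn1* transcripts and 11.6% of its *Ccn2* transcripts, and in RPR2, where they were 9.01% of cells, 1.47% and 1.45%. *Ager*/*Aqp5* cells, 4.19% of RPR2 cells and 0.935% of CRPR2 cells, held 29.7% and 14.3% of *Ccn1*. Mural cells, 6.485% and 2.48% of cells, held 29.65% and 18.9% of *Ccn2*.

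The pair went together within cells as well as across classes. After thinning, *Ccn2* was found in 11.7% of RPR2 tumor cells with *Ccn1* and in 1.87% of those without it, and in 11.7% and 1.70% of CRPR2 tumor cells. In mural cells the shares were 52.3% with and 38.7% without *Ccn1* in RPR2, and 56.65% and 35.5% in CRPR2. In fibroblasts they were 26.0% and 19.6% in RPR2 and 44.5% and 25.0% in CRPR2. In *Ager*/*Aqp5* cells they were 28.4% and 23.1% in RPR2 and 43.1% and 26.7% in CRPR2. In each of these classes and sections the share was higher in cells with *Ccn1*. The difference of the shares with and without *Ccn1* between sections was not tested. Both genes were also higher in tumor cells with mural or fibroblast transcripts, and the part of neighboring cells in these shares was not tested.

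Over 22 points, the 11 classes of each section, the log2 levels (10 CPM added) of *Ccn1* and *Ccn2* had a Pearson r of 0.89 (0.86 within RPR2 and 0.91 within CRPR2). The points share libraries and panel and are given as a description. Of 340 other genes ranked, with class markers left out, those most like *Ccn1* were *Fbln5* (fibulin-5, an elastic fiber protein, 0.92), *Cryab* (a small heat shock protein, 0.92), *Timp3* (an inhibitor of metalloproteinases, 0.89), *Ccn2* and *Pmp22* (a membrane protein, 0.85). Those most like *Ccn2* were *Ccn1*, *Timp3* (0.86), *Snai1* (a transcription factor of mesenchymal change, 0.85), *Mylk3* (a myosin light chain kinase, 0.82) and *Cryab* (0.82). *Fbln5* was highest where *Ccn1* was, at 11779 and 14399 CPM in *Ager*/*Aqp5* cells against 349 and 318 CPM in tumor cells. *Mylk3* was at 4396 and 4056 CPM in mural cells against 20.1 and 19.0 CPM in tumor cells.

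The other listed YAP/TEAD genes on the panel did not share this pattern. Of 35 listed genes, 4 were on it: *Thbs1* (thrombospondin 1), *F3* (tissue factor), *Ccdc80* (a matrix protein) and *Areg* (an EGFR ligand). Their r with *Ccn1* ran from -0.38 for *Areg* to 0.38 for *F3*, and with *Ccn2* from -0.35 for *Areg* to 0.48 for *Thbs1*. *Thbs1* was high in mural cells (14905 and 12032 CPM), as *Ccn2* was, but at 8958 and 8131 CPM in tumor cells. *Areg* had its highest levels in ciliated cells, 2430.4 and 2767 CPM. *Ccn3* was opposite to both, with r of -0.53 for *Ccn1* and -0.40 for *Ccn2*.

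**Figure D5:**
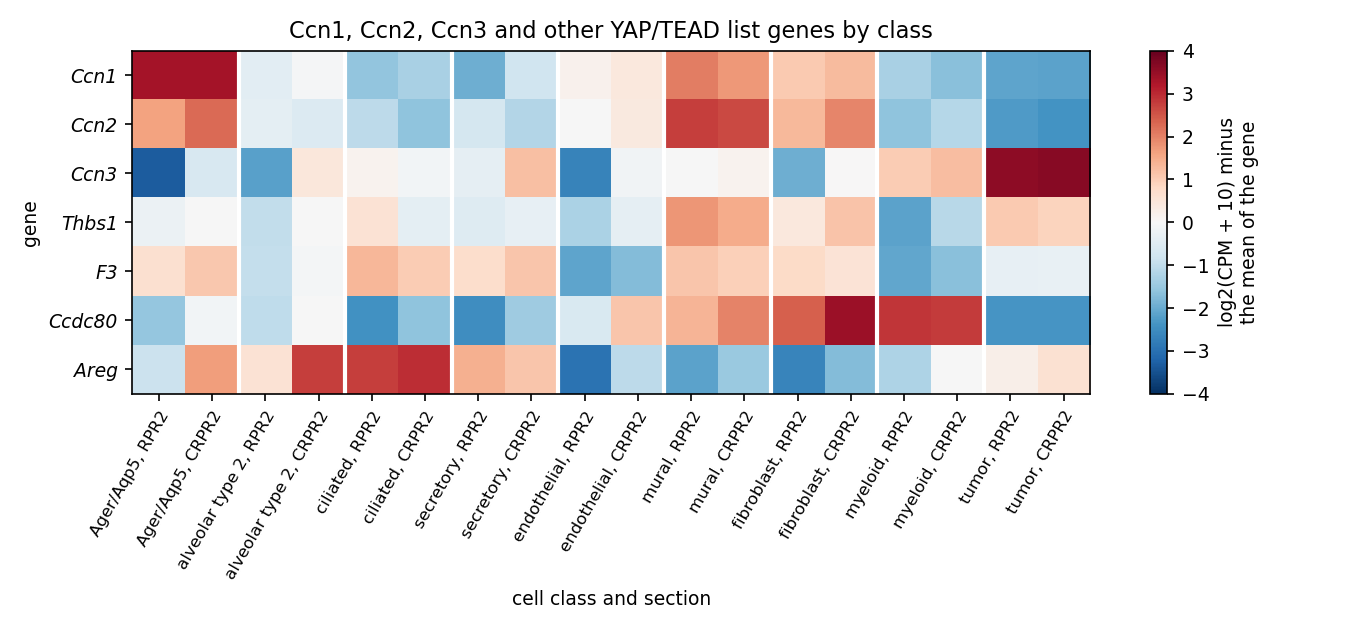
Level of *Ccn1*, *Ccn2*, *Ccn3* and 4 further listed YAP/TEAD genes in 9 cell classes of the RPR2 and CRPR2 section, as log2(CPM + 10) minus the mean of the gene over the columns (color, red above and blue below). *Ccn1* and *Ccn2* are red in *Ager*/*Aqp5*, mural and fibroblast cells and blue in tumor cells, and *Ccn3* is red in tumor cells.

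Between sections, 0 of these 4 genes differed at least 2-fold in tumor cells (14.6% of all genes there), with a median log2 ratio of 0.03. In *Ager*/*Aqp5* cells 2 of 4 were higher in CRPR2 and none lower (32.9% of all genes differed), with a median of 0.94. *Areg* stood there at 185 CPM in RPR2 versus 1123 CPM in CRPR2, and *Ccdc80* at 232 and 637 CPM. In fibroblasts 1 of the 3 genes with at least 100 CPM was higher and none lower, *Ccdc80* (3633 and 7535 CPM), beside 32.5% of all genes, and the median was 0.72. In endothelial cells 2 of 4 were higher (31.6% of all genes, median 1.31), in epithelial cells 2 of 4 (34.2%, median 0.65) and in mural cells 0 of 4 (29.9%, median 0.24), with none lower. With 3 or 4 genes, these counts do not set the list apart from the panel. The medians over all genes were 0.01 in tumor, 0.37 in *Ager*/*Aqp5*, 0.26 in fibroblast, 0.43 in endothelial, 0.08 in epithelial and 0.22 in mural cells.

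Of the 3 TGF-beta and BMP targets (*Smad7*, *Smad6* and *Id1*), none was past 2-fold in tumor, endothelial, mural, fibroblast and *Ager*/*Aqp5* cells, where 14.6%, 31.6%, 29.9%, 32.5% and 32.9% of all genes were. *Id1*, a target of BMP signaling, was past 2-fold in epithelial cells (34.2% of all genes), at 641 CPM in RPR2 versus 1770 CPM in CRPR2. It stood at 744 and 690 CPM in *Ager*/*Aqp5*, 844 and 1746 CPM in alveolar type 2, 604 and 1591 CPM in ciliated and 279 and 1953 CPM in secretory cells. Tumor cells had 826 and 1507 CPM, and the part of tumor transcripts in the epithelial difference was not tested. *Smad6*, an inhibitor of BMP signaling, was lower in CRPR2 in fibroblasts (2249 and 1678 CPM) and endothelial cells (14988.5 and 8999.5 CPM). It was also lower in mural, *Ager*/*Aqp5* and alveolar type 2 cells, and higher in secretory (1009 and 1299 CPM) and ciliated cells (877 and 1166.5 CPM). Of the 3 NOTCH targets (2 of them at 100 CPM in tumor cells), none passed 2-fold in tumor, epithelial, endothelial, mural and fibroblast cells, beside 14.6% to 34.2% of all genes. Of the 7 matrix and mesenchymal genes, 1 was past 2-fold in fibroblasts (32.5% of all genes), *Twist1*, a transcription factor of mesenchymal cells, at 151 and 359 CPM (median log2 ratio of the 7 genes, 0.28). *Col1a1* stood there at 32548 and 50932.5 CPM. In tumor cells 1 of the 6 with at least 100 CPM was past 2-fold (14.6% of all genes), *Snai2*, at 92.6 and 206 CPM. No immediate-early gene is on the panel.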

How the data were processed

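Formalin-fixed lung tissue of 1 RPR2 and 1 CRPR2 mouse was assayed with Xenium In Situ. The authors deposited transcript counts per gene and segmented cell (cells made by expansion of nuclei), as whole numbers without normalization, with 541 features per section, of which 479 are genes. Their submitters' notes name Seurat 4.4.0, and the study's methods name Xenium Explorer. Deposited counts were used directly. The study's cell annotation and cell positions were not used here.

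Cells with fewer than 20 gene transcripts were left out (1903 and 2236). Classes were set by marker transcripts (at least 4 of the class, at most 1 tumor marker outside the tumor class). Doublets were not called. Another class, and a gene of the YAP/TEAD and TGF-beta lists, are not reported here, and list counts, orders and correlations leave them out. Transcripts were summed over a class and given as CPM, with exact Poisson intervals, ratios have exact conditional intervals and shares exact Clopper-Pearson intervals, all at 95% and for counting error only. A count of 0 would allow up to 3 transcripts. Cells were thinned to 50 transcripts for shares, which left out 15856 and 34059 shallower cells. Genes with at least 100 CPM in a section of a class entered the background of at least 2-fold differences. No test was run, since each genotype had 1 section. The calculation of the ratio intervals was checked on simulated Poisson counts. These hold no spread between cells, mice or sections, so the check says nothing about such spread.

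The members and gene lists were chosen with earlier results of these data known. The text names the members, list genes, markers and the 5 genes most like each member (Pearson r of log2 CPM, 10 CPM added). Splits within fibroblast, mural and endothelial cells and of tumor cells by *Ager* and *Aqp5*, and of epithelial cells, were chosen after the data had been seen. Scripts used scipy 1.17.1 and numpy 2.4.6 in Python 3.11.15, with pandas 2.3.3 and matplotlib 3.10.9 for tables and figures.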

Additional observations from a re-analysis of the deposited data

Results flagged for a closer look

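The sections differed in opposite directions between classes, by more than counting error, and whether the classes differ was not tested, since each genotype had 1 section. For *Ccn1* the log2 ratio of CRPR2 over RPR2 was 0.23 in endothelial cells and 0.20 in fibroblasts, against -0.39 in epithelial and -0.30 in mural cells. For *Ccn2* it was 0.42 in endothelial cells and 0.66 in fibroblasts, against -0.11 in tumor, -0.22 in epithelial and -0.12 in mural cells. The tumor *Ccn2* ratio was negative under every processing alternative run, but not in every subset of tumor cells. Its interval held 0 with 6 marker transcripts, by shares of thinned cells and in cells without markers of other classes (-0.87, -2.79 to 1.61). The interval lay under 0 by means per cell (-0.14, -0.25 to -0.035) and in tumor cells without mural, fibroblast, *Ager* or *Aqp5* transcripts (-0.33, -0.60 to -0.05). Tumor cells without epithelial marker transcripts, 29.4% of the class in RPR2 and 26.2% in CRPR2, had a *Ccn2* ratio of 0.46 (0.17 to 0.76). Tumor cells with 4 or more epithelial marker transcripts had one of -0.36 (-0.50 to -0.21). The epithelial and mural *Ccn2* ratios were not stable. In cells without tumor and cycling transcripts they turned to 0.096 and 0.048. *Ccn1* in epithelial cells turned to 0.89 without markers of other classes.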

How the results depend on the processing

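No paired analysis was possible because each genotype had 1 section, both numbered 1. Log2 ratios of CRPR2 over RPR2 in the 5 main classes were recomputed under 50 alternatives set beforehand and 12 chosen after seeing the data. Of the former, 25 stayed within the interval of the reported ratio, 23 left it in the same direction or near 0 and 2 turned, and of the latter 1, 7 and 4. A minimum of 50 transcripts per cell left none of the 10 ratios outside its interval, and 6 marker transcripts moved only *Ccn2* in mural cells (-0.077).

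Requiring no transcript of any other class left 3796 and 4298 epithelial, 883 and 405 endothelial, 213 and 1391 tumor and 99 and 76 mural cells. *Ccn1* then turned to 0.89 in epithelial cells and -0.16 in fibroblasts, and was 1.22 in endothelial and -0.051 in mural cells. *Ccn2* was -0.87 in tumor, -0.58 in epithelial, 1.67 in endothelial, -0.43 in mural and 1.31 in fibroblast cells. It turned to 0.61 in alveolar type 2 cells, which could still hold markers of the other epithelial subclasses. As means per cell instead of CPM, *Ccn1* was -0.32 in epithelial, 0.29 in endothelial, -0.19 in mural and 0.33 in fibroblast cells, and *Ccn2* -0.15, 0.48, -0.015 and 0.79. By shares of thinned cells, *Ccn1* was -0.35 in epithelial, 0.19 in endothelial and 0.13 in fibroblast cells, and *Ccn2* -0.31, 0.31 and 0.45, and -0.072 in mural cells.

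Without tumor marker, *Ccn3*, *Mki67* or *Top2a* transcripts (chosen after seeing the data), *Ccn1* was -0.21 in epithelial, 0.28 in endothelial, -0.20 in mural and 0.037 in fibroblast cells. *Ccn2* turned to 0.096 in epithelial, 0.048 in mural and 0.053 in alveolar type 2 cells, and was 0.49 in endothelial and 0.58 in fibroblast cells. At the RPR2 mix of epithelial subclasses both epithelial ratios turned, to 0.14 for *Ccn1* and 0.20 for *Ccn2*. In tumor cells without mural, fibroblast, *Ager* or *Aqp5* transcripts *Ccn2* was -0.33 (-0.60 to -0.05). The cause of these moves was not tested. *Ccn2* was higher in CRPR2 in fibroblasts and endothelial cells under every alternative run. In the subset of cells with tumor marker, *Ccn3*, *Mki67* or *Top2a* transcripts it was 0.77 in fibroblasts and -0.01 (-0.10 to 0.08) in endothelial cells. Counts in T or NK and *Msln*/*Upk3b* cells, 57 to 181 transcripts of a gene in a section, limit levels most.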
